A study of Mus musculus with 6 samples.

Results

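*Elavl1*, *Elavl2*, *Elavl3*, *Elavl4*, *Msi1*, *Msi2*, *Nova1*, *Dicer1* and *Drosha* encode proteins that bind messenger RNA in neural cells or cut microRNA precursors. Every probe set whose gene symbol entry named 1 of these 9 genes was read, and there were 35 such probe sets among the 45077 on the array. Each probe set is made of short probes against a stretch of transcript, and these genes have 2 to 8 each. Cerebral cortex of 6 male mice was measured, with 2 mice in each of 3 groups. The labels give their age as 16 weeks, which by the methods is the age before acclimatization, dosing and tests, so that the cortex was taken later. STEE-fed SAMP8 mice received sugarcane top ethanolic extract (STEE) by mouth at 20 mg/kg for 30 days and throughout 8 further days of behavioral tests. SAMP8 control mice and SAMR1 mice were given water of the same volume in its place. SAMP8 is an inbred, non-transgenic senescence-accelerated strain, and SAMR1 is the related senescence-resistant strain. All animals were housed alone and, by the study's methods, drank BrdU to label dividing cells. No SAMR1 mice were fed STEE, so the extract could be compared with water in SAMP8 only, and SAMP8 and SAMR1 can differ at any locus where the strains differ.

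Hu proteins (the *Elavl* genes) bind AU-rich stretches in messenger RNA and stabilise it or promote its translation. *Elavl1* (HuR) is made in nearly all cells, whereas *Elavl2* (HuB), *Elavl3* (HuC) and *Elavl4* (HuD) are mainly neuronal. Musashi proteins (*Msi1*, *Msi2*) control translation in neural stem and progenitor cells, and Nova1 is a neuronal splicing factor. Drosha cuts primary microRNA transcripts in the nucleus into hairpins, Dicer1 cuts the hairpins in the cytoplasm into mature microRNAs, and Argonaute proteins then use these to silence messenger RNAs.

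The let-7 family is a textbook product of the Drosha and Dicer1 pathway, and let-7b is shown because the array carries a probe set for its transcript whose value is given with the microRNA pathway. In the RefSeq table of GRCm38.p6 the let-7b hairpin lies on the plus strand at chr15:85707319-85707403. Of 1679 mature mouse microRNA names in that table, 11 share the let-7b-5p seed (bases 2 to 8), namely let-7a-5p, let-7b-5p, let-7c-5p, let-7d-5p, let-7e-5p, let-7f-5p, let-7g-5p, let-7i-5p, let-7k, miR-98-5p and miR-1961. Capitals mark both mature strands in the 85-base hairpin as annotated, and bases 2 to 8 in each mature strand.
let-7b hairpin: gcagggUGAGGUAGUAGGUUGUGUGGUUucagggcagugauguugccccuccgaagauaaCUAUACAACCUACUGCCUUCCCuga
mmu-let-7b-5p: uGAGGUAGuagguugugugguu
mmu-let-7b-3p: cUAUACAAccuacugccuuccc

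The values were the log2 signals that the authors averaged over each group and rounded to 2 decimals. A difference of 1 on this scale is a doubling, and differences between group means are given in log2 units unless named as a fold. Because no value per mouse was used, the group means carry no SD, no difference could be tested, and precision is limited by the number of arrays. A difference of at least 0.2 in size, a 1.15-fold difference, was counted as past the threshold, and its share of all probe sets is given beside the share of these genes. SAMP8 control vs. SAMR1 and STEE-fed SAMP8 vs. SAMP8 control share the SAMP8 control arrays, so that noise in those arrays enters both. STEE-fed SAMP8 vs. SAMR1 is the sum of these differences and is no independent measurement. Signals of different probe sets were not used to compare amounts of different transcripts, since brightness depends on the probes. They served only to rank the probe sets of a gene, to be set beside the array median and to be summed over marker lists.

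The label cerebral cortex was set beside marker genes, each read from its brightest probe set. All 7 neuron markers lay between 7.05 and 11.58 in the 3 groups and all 6 cortex markers between 5.93 and 8.57, above the median signal of all probe sets, which was 4.16 in SAMR1 and 4.15 in each SAMP8 group. *Slc17a7* is in both lists. The striatum markers lay above that median too, between 6.21 and 8.87, so these levels cannot tell cortex from other neuronal tissue. The 6 striatum markers were all past 0.2, with SAMP8 control above SAMR1 by 0.32 to 0.89. Their log2 signals summed to 42.88 in SAMR1, 46.54 in SAMP8 control and 46.95 with STEE. All 6 oligodendrocyte markers were lower in SAMP8 control, 4 of them past 0.2, with a median of -0.33 and sums of 58.74, 56.85 and 56.83 in the same order. *Ttr*, the defining transcript of choroid plexus, was 10.20 in SAMR1, 8.24 in SAMP8 control and 9.33 with STEE. With STEE, all 6 cortex markers were higher than in SAMP8 control, 3 of them past 0.2, and their sum went from 43.82 to 45.08. Of the other lists, 1 of 7 neuron markers was higher past 0.2 between the strains, 1 of 6 astrocyte markers was higher and 1 lower, and 1 of 6 microglia, 1 of 5 endothelium, 2 of 5 choroid plexus and 2 of 5 hippocampus markers were lower. With STEE, 1 astrocyte, 1 endothelium and 1 hippocampus marker were lower and 2 choroid plexus and 1 hippocampus marker higher past 0.2, and none of the neuron, oligodendrocyte, microglia or striatum markers was. Thus the tissue pieces differed in markers of neighbouring regions, mainly between the strains, and the part of this in the differences below was not tested. In whole tissue, fewer cells of a type cannot be told apart from less RNA per cell.

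**Figure D1:**
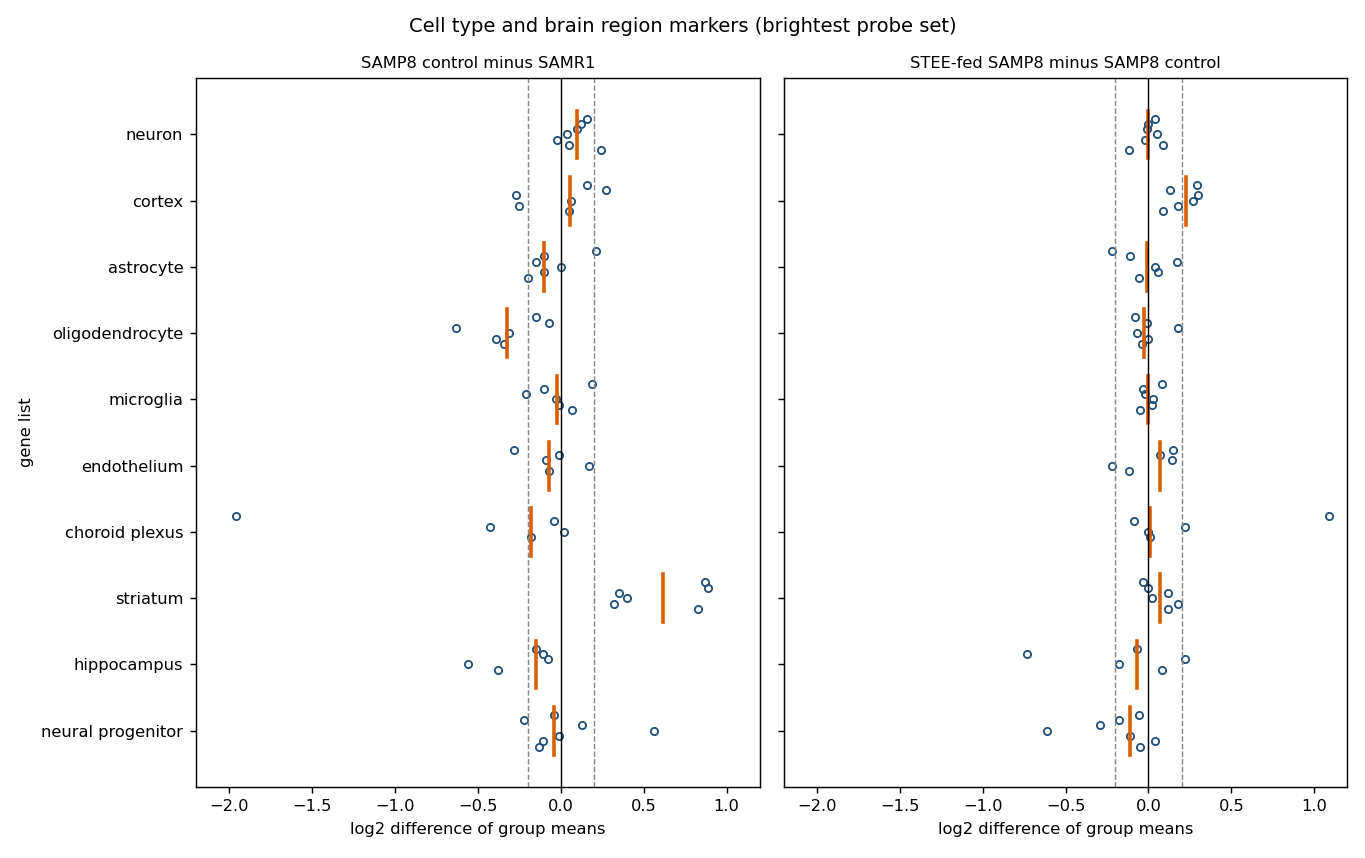
Log2 difference of group means (x axis) for marker genes of cell types and brain regions (rows), each point being the brightest probe set of a gene, the orange bar the median of the list and the dashed lines 0.2. In SAMP8 control minus SAMR1 (left) the 6 striatum markers lie between 0.32 and 0.89 and the 6 oligodendrocyte markers below 0; in STEE-fed SAMP8 minus SAMP8 control (right) the 6 cortex markers lie between 0.09 and 0.30.

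Across all 35 probe sets, the RNA-binding and microRNA-processing genes did not differ in a common direction between the strains. In SAMP8 control vs. SAMR1, 16 were higher and 19 lower, with a median difference of -0.01, beside 0 over all probe sets. Past the threshold were 5 (14.3%), against 13.7% of all probe sets: 3 were higher, where 6.73% of all probe sets were, and 2 were lower, where 6.93% were. Among probe sets at or above the median signal, 5 of 28 (17.9%) were past it, against 20.9% of all such probe sets. The probe sets higher in SAMP8 control belonged to *Drosha* (1) and *Elavl2* (2), and those lower to *Msi1* (1) and *Msi2* (1).

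With STEE, fewer differences passed the threshold. In STEE-fed SAMP8 vs. SAMP8 control, 16 probe sets were higher, 18 lower and 1 equal, again with a median of -0.01 beside 0 over all. Past the threshold were 3 (8.57%), against 6.07% of all probe sets: *Elavl1* and *Elavl4* each had 1 probe set higher, where 3.15% of all were, and *Msi2* had 1 lower, where 2.91% were. Among probe sets at or above the median signal, 3 of 28 (10.7%) were past it, against 8.18% of all such probe sets. Without probe sets whose suffix marks several transcripts or genes, 1 of 26 was past it. The share of all probe sets without such suffixes was not computed. Read from the brightest probe set, none of the 9 genes was past the threshold, where 5.72% of all genes were. The largest difference was 0.17, in *Drosha*. The related gene lists below are counted in that way.

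Between STEE-fed SAMP8 and SAMR1, 10 probe sets (28.6%) were past the threshold, against 15.1% of all probe sets. Higher were 8, where 8.22% of all were, and they belonged to *Drosha* (2), *Elavl2* (2), *Elavl4* (2), *Elavl1* (1) and *Nova1* (1). Lower were 2, of *Msi1* and *Msi2*, where 6.84% of all were. Without probe sets whose suffix marks several transcripts or genes, 6 of 26 were past it, and the share of all probe sets without such suffixes was not computed. Bright probe sets passed the threshold more often than dim ones in the array as a whole. Of the 28 probe sets of these genes at or above the median signal 9 (32.1%) were past it, against 23.4% of all such probe sets, and of the 7 below the median 1 was. The median difference was 0 and the directions were even, with 17 higher, 17 lower and 1 equal. No test of the share was made, and probe sets of a gene are not independent of each other.

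**Figure D2:**
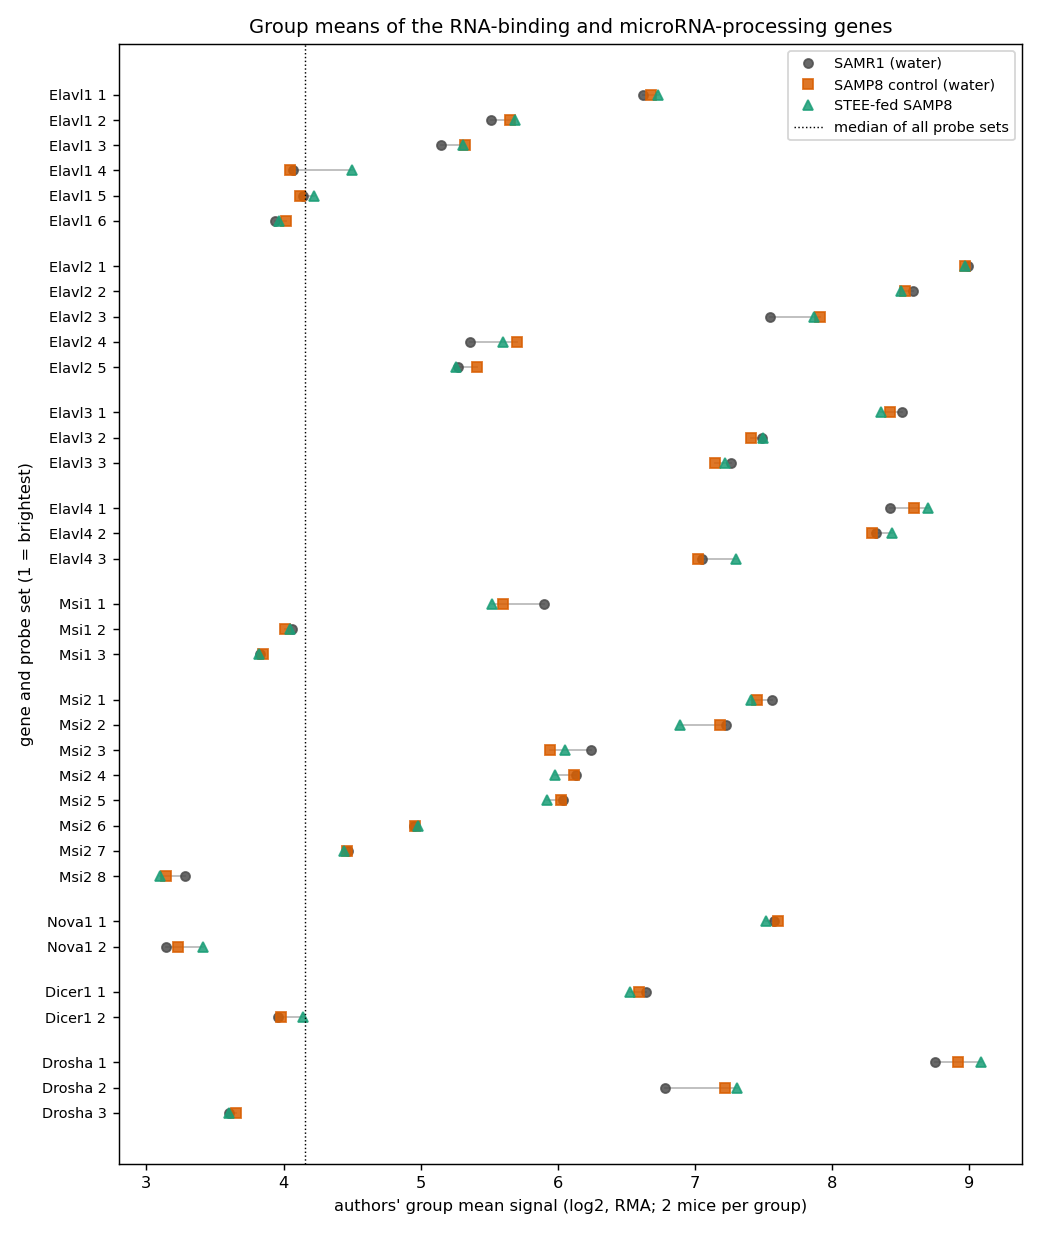
Authors' group mean signal (x axis, log2) of all 35 probe sets of the 9 genes (rows, numbered within a gene from the brightest), with circles for SAMR1, squares for SAMP8 control and triangles for STEE-fed SAMP8, each the mean of 2 mice with no error available. The symbols of most rows lie close together; the widest gaps are in *Drosha* 2, from 6.78 to 7.31, and *Elavl1* 4, from 4.05 to 4.50.

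Of the enzymes that make microRNAs, *Drosha* had the single probe set with the largest difference among the 35 in both comparisons with SAMR1; by the brightest probe set of each gene *Msi1* differed more, by -0.30 against 0.17 and by -0.38 against 0.34. Its 3 probe sets carry the symbol entry of *Drosha* together with the predicted locus *LOC100045148*, so that the transcripts cannot be told apart. Probe set 1428656_PM_at was 6.78 in SAMR1, 7.22 in SAMP8 control and 7.31 with STEE. Both SAMP8 groups thus lay above SAMR1, by 0.44 (1.36-fold) and 0.53 (1.44-fold), and differed from each other by 0.09. A difference at least as large in size was found in 1.88% of all probe sets for SAMP8 control vs. SAMR1 and in 1.32% for STEE-fed SAMP8 vs. SAMR1.

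The brightest *Drosha* probe set, 1438505_PM_s_at, whose suffix marks probes shared by transcripts of different genes, was 8.75 in SAMR1, 8.92 in SAMP8 control and 9.09 with STEE. It was higher by 0.17 in the strain comparison and by a further 0.17 with STEE, each short of the threshold, and by 0.34 (1.27-fold) from SAMR1 to STEE-fed SAMP8. The third, 1438440_PM_at, lay below the median signal of the array at 3.60, 3.65 and 3.60. Hence the bright probe sets were ordered SAMR1, SAMP8 control, STEE-fed SAMP8, and the dim one showed no such order. Over the 3 probe sets the difference of SAMP8 control from SAMR1 was 0.22 ± 0.20 (mean ± SD over probe sets, which is a spread of probes and not of mice).

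*Dicer1*, which acts after Drosha, differed less. The bright probe set 1460571_PM_at was 6.64 in SAMR1, 6.59 in SAMP8 control and 6.53 with STEE. The dim probe set 1427941_PM_at was 3.96, 3.98 and 4.14 in the same order. The former was lowest and the latter highest with STEE, and neither was past 0.2 in any comparison.

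The rest of the microRNA machinery showed few differences past the threshold. Of 24 other genes for microRNA processing and silencing, 1 was higher and 1 lower past 0.2 in SAMP8 control vs. SAMR1, where 12.6% of 22527 genes on the array, each read from its brightest probe set, were past it in either direction. Their median was -0.07 beside 0 over all genes, with 18 lower, 5 higher and 1 equal. *Tsnax*, whose protein is part of the C3PO ribonuclease, was 8.41 in SAMR1, 8.63 in SAMP8 control and 8.69 with STEE. Its dimmer probe set went the other way between the strains, by -0.07. *Tnrc6a*, which encodes the Argonaute partner GW182, was 8.75, 8.52 and 8.44. In the brightest probe set *Tsnax* and *Tnrc6a* kept their side in STEE-fed SAMP8 vs. SAMR1, at 0.28 and -0.31. By that measure no other of the 24 genes was past 0.2 there, where 14.2% of all genes were.

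With STEE, none of the 24 genes was past 0.2 by its brightest probe set, where 5.72% of all genes were. Dimmer probe sets reached -0.20 in *Ago3* and 0.20 in *Tsnax*. In the brightest probe sets the differences of the 24 genes from SAMP8 control lay between -0.11 and 0.12 with a median of 0.01. *Dgcr8*, the partner of Drosha in the nucleus, was 6.97 in SAMR1, 6.88 in SAMP8 control and 6.94 with STEE. *Xpo5*, the exporter of the hairpins, was 5.86, 5.89 and 5.99. *Ago2*, the Argonaute that can cut its targets, was 7.75, 7.78 and 7.67. Thus in the brightest probe set the group means of each of these partners of Drosha and Dicer1 lay within 0.13 of each other. Other probe sets of *Dgcr8* and *Ago2* differed by up to 0.24 and 0.34 in SAMP8 control vs. SAMR1. *Lin28a* and *Lin28b*, which block let-7 maturation in embryonic cells, were at 2.55 to 2.78, below the median signal of the array.

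The array did not measure mature microRNAs, but 13 of its probe sets carry a symbol entry of a microRNA or a microRNA host transcript. They were chosen by name after the values above were known. None was past 0.2 in SAMP8 control vs. SAMR1, where 13.7% of all probe sets were. With STEE, 1 was higher and 2 lower past 0.2, where 6.07% of all were, with 4 higher and 9 lower in all and a median of -0.04. In STEE-fed SAMP8 vs. SAMR1, 0 were higher and 2 lower past 0.2, where 15.1% of all were. The let-7b probe set, for the transcript whose hairpin is printed above, was 5.50 in SAMR1, 5.50 in SAMP8 control and 5.23 with STEE, a difference of -0.27 from each water group. *Mirg*, within whose bounds 10 microRNA hairpins lie in the RefSeq table, was 6.49, 6.52 and 6.26 in 1440097_PM_at and 6.24, 6.21 and 6.17 in 1457030_PM_at. Only the former of the *Mirg* probe sets was past the threshold. The one past it in the higher direction carries the joint entry *Mir1894* and *Ppp1r10* and was 4.63, 4.55 and 4.75. Hence the *Drosha*, let-7b and *Mirg* values did not share an order across the groups.

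**Figure D3:**
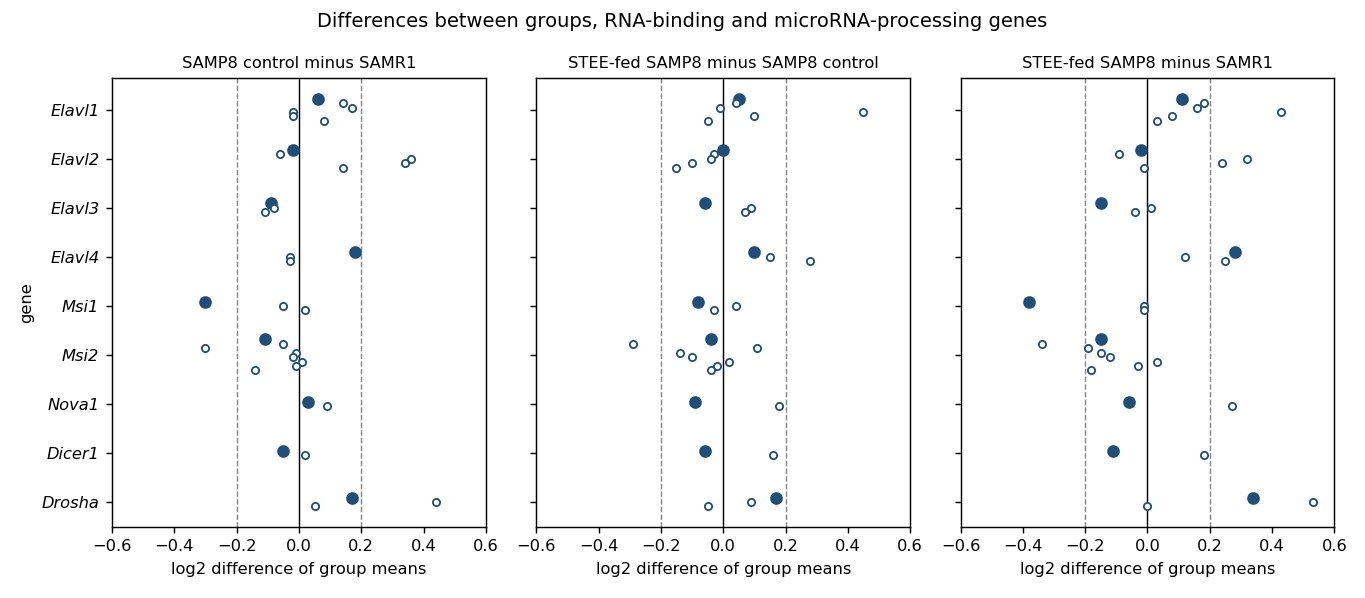
Log2 difference of group means (x axis) of every probe set of the 9 genes (rows) in 3 comparisons (panels), with a filled point for the brightest probe set of a gene, open points for the others and dashed lines at 0.2. *Drosha* reaches 0.44 in the left panel and 0.53 in the right, *Elavl1* has a single point at 0.45 in the middle, and *Elavl4* has 3 points above 0 in the middle.

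Among the Hu genes, *Elavl4* (HuD) was higher with STEE in all 3 probe sets. 1428741_PM_at was 8.42 in SAMR1, 8.60 in SAMP8 control and 8.70 with STEE. 1452894_PM_at was 8.32, 8.29 and 8.44. 1450258_PM_a_at was 7.05, 7.02 and 7.30. STEE-fed SAMP8 was the highest group in each, while the water groups were within 0.03 of each other in the latter pair of probe sets. The difference of STEE-fed SAMP8 from SAMP8 control was 0.10, 0.15 and 0.28, or 0.18 ± 0.09 (mean ± SD over probe sets), and only the last, a 1.21-fold difference, was past 0.2. Of 2685 genes with 3 probe sets, 16.7% had all 3 higher with STEE, and 45 genes (1.68%) had all 3 higher by at least 0.1, *Elavl4* among them. That limit equals the smallest *Elavl4* difference, so the smaller share does not measure how unusual the gene is. The 3 probe sets were read on the same arrays and are not independent. Against SAMR1, STEE-fed SAMP8 was higher by 0.28, 0.12 and 0.25.

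*Elavl1* (HuR), the Hu protein of all cell types, had 6 probe sets. The brightest, 1452858_PM_at, was 6.62 in SAMR1, 6.68 in SAMP8 control and 6.73 with STEE. The largest difference with STEE among the 35 probe sets was in 1428653_PM_x_at, at 4.07, 4.05 and 4.50, which is 0.45 or 1.37-fold above SAMP8 control. Only 0.242% of all probe sets differed by at least as much between these groups. The probe set was dim, with both water groups just below the median signal of the array. That probe set was designed on the same transcript as the brightest, where the difference was 0.05, and its suffix marks probes that also resemble other sequences.

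The other *Elavl1* probe sets differed by -0.05 to 0.10 with STEE. 1448151_PM_at was 5.51 in SAMR1, 5.65 in SAMP8 control and 5.69 with STEE, and 1431037_PM_a_at was 5.15, 5.32 and 5.31. In both, the SAMP8 groups lay together above SAMR1. The remaining 1440464_PM_at and 1445521_PM_at lay near the median signal of the array, between 3.94 and 4.22. All 6 probe sets were higher in STEE-fed SAMP8 than in SAMR1, with differences from 0.03 to 0.43 of which 1 was past 0.2.

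*Elavl2* (HuB) differed between the strains in some probe sets and not in others. 1421881_PM_a_at was 7.55 in SAMR1, 7.91 in SAMP8 control and 7.87 with STEE. 1454454_PM_at was 5.36, 5.70 and 5.60. Both SAMP8 groups were above SAMR1 in these, SAMP8 control by 0.36 (1.28-fold) and 0.34 (1.27-fold). The brightest, 1421883_PM_at, was 8.99, 8.97 and 8.97, and 1421882_PM_a_at was 8.59, 8.53 and 8.50, so that the brightest pair showed no difference past 0.1 between any groups. The fifth, 1433052_PM_at, was 5.27, 5.41 and 5.26. With STEE, no *Elavl2* probe set was higher than in SAMP8 control, with differences from -0.15 to 0.

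*Elavl3* (HuC), a marker of postmitotic neurons, lay below SAMR1 in SAMP8 control in all 3 probe sets, by 0.08 to 0.11. 1435871_PM_at was 8.51 in SAMR1, 8.42 in SAMP8 control and 8.36 with STEE. 1455484_PM_at was 7.49, 7.41 and 7.50, and 1452524_PM_a_at was 7.26, 7.15 and 7.22. The former was lowest with STEE, and the latter pair lowest in SAMP8 control. None was past 0.2, and all 3 probe sets were lower in SAMP8 control in 16.5% of the genes with 3. Thus the Hu genes did not move together: *Elavl4* was higher with STEE in every probe set, *Elavl2* differed between strains in part of its probe sets, and *Elavl3* in neither past the threshold.

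The Musashi genes were lower in SAMP8 in part of their probe sets. *Msi1*, known from neural stem cells and astrocytes, had 1 probe set clearly above the median signal, 1452287_PM_at, at 5.90 in SAMR1, 5.60 in SAMP8 control and 5.52 with STEE. It was lower in SAMP8 control by 0.30 (1.23-fold) and in STEE-fed SAMP8 by 0.38 (1.30-fold), and the SAMP8 groups differed by 0.08. 1421409_PM_at was 4.06, 4.01 and 4.05, and 1444306_PM_at was 3.83, 3.85 and 3.82, both below the median signal of the array and with no difference over 0.05. Over the 3 probe sets the difference of SAMP8 control from SAMR1 was -0.11 ± 0.17 (mean ± SD). *Sox2*, a transcription factor of the same progenitor and glial cells, was 7.73, 7.51 and 7.33, whereas the progenitor marker *Eomes* was 4.19, 4.75 and 4.14. Of the 7 neural progenitor markers, 1 was higher and 1 lower past 0.2 between the strains, where 12.6% of all genes were past it. With STEE, 2 were lower past 0.2 and 0 higher, where 5.72% of all genes were past it in either direction. The log2 signals of the 7 summed to 33.79, 33.97 and 32.71. The part of such cells in the *Msi1* value was not tested.

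*Msi2* had 8 probe sets, of which 7 lay below SAMR1 in SAMP8 control and 7 did so with STEE. Some of these differences were within or near rounding, such as -0.01 in 1421230_PM_a_at and -0.02 in 1441185_PM_at for SAMP8 control. The median difference from SAMR1 was -0.035 in SAMP8 control and -0.15 with STEE, and 1 probe set was past 0.2 in each. 1435520_PM_at was 7.23 in SAMR1, 7.18 in SAMP8 control and 6.89 with STEE. 1435521_PM_at, designed on the same transcript, was 6.24, 5.94 and 6.05. The former was lower with STEE by 0.29 (1.22-fold) and the latter between the strains by 0.30 (1.23-fold), so these neighbours put the drop in different comparisons.

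The brightest *Msi2* probe set, 1436818_PM_a_at, was 7.56 in SAMR1, 7.45 in SAMP8 control and 7.41 with STEE. 1421230_PM_a_at was 6.13, 6.12 and 5.98, and 1441185_PM_at was 6.04, 6.02 and 5.92. In these 3 STEE-fed SAMP8 was lowest, by 0.12 to 0.15 from SAMR1. The remaining 1458136_PM_at, 1443008_PM_at and 1421231_PM_at were at 4.95 to 4.98, 4.44 to 4.47 and 3.10 to 3.28 over the groups. Over the 8 probe sets STEE-fed SAMP8 differed from SAMP8 control by -0.06 ± 0.12 and from SAMR1 by -0.14 ± 0.11 (mean ± SD).

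*Nova1* did not differ past the threshold in its bright probe set, 1426938_PM_at, which was 7.58 in SAMR1, 7.61 in SAMP8 control and 7.52 with STEE. The dim 1452245_PM_at was 3.14, 3.23 and 3.41, which is 0.27 (1.21-fold) higher in STEE-fed SAMP8 than in SAMR1 at a signal below the median of the array. The probe sets opposed each other with STEE, at -0.09 and 0.18.

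Of 21 other splicing factors of neurons, 1 was higher and 1 lower past 0.2 in SAMP8 control vs. SAMR1, where 12.6% of all genes were past it in either direction. With STEE 0 were past it by the brightest probe set, where 5.72% of all genes were, and they lay between -0.17 and 0.16. Dimmer probe sets reached 0.21 in *Rbfox2* and -0.20 in *Qk*. *Khdrbs3*, a STAR family splicing factor, was 8.22 in SAMR1, 8.42 in SAMP8 control and 8.58 with STEE. *Qk*, the STAR protein of oligodendrocytes and astrocytes, was 10.14, 9.93 and 9.91. Over its 7 probe sets the difference of SAMP8 control from SAMR1 ran from -0.30 to 0.04. The oligodendrocyte markers were lower in the same groups, and the astrocyte markers differed from SAMR1 by a median of -0.10 in SAMP8 control and -0.025 with STEE. The part of these cells in the *Qk* value was not tested. *Ptbp1*, the polypyrimidine tract binding protein of non-neuronal cells, was 5.60, 5.48 and 5.33. With *Qk* and *Khdrbs3* it made up the 3 genes past 0.2 between STEE-fed SAMP8 and SAMR1, where 14.2% of all genes were. These were read from the brightest probe set, and other probe sets went up to 0.02 in *Ptbp1* and -0.11 in *Qk*. *Nova2*, the paralog of *Nova1*, was 7.72, 7.56 and 7.60.

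Of 24 other genes for transport, stability and translation of messenger RNA, 3 were higher and 0 lower past 0.2 in SAMP8 control vs. SAMR1, where 12.6% of all genes were past it in either direction. *Khsrp*, which encodes an AU-rich element binding protein that promotes decay, was 6.11 in SAMR1, 6.45 in SAMP8 control and 6.53 with STEE. *Stau1*, for RNA transport, was 6.15, 6.46 and 6.39. *Fmr1*, whose loss causes fragile X syndrome, was 8.23, 8.50 and 8.51. In the brightest probe set of these 3 the SAMP8 groups lay together above SAMR1. Other probe sets differed less between SAMP8 control and SAMR1, down to -0.03 in *Fmr1*, 0.02 in *Stau1* and 0.06 in *Khsrp*. With STEE, 0 of the 24 were past 0.2 by the brightest probe set, where 5.72% of all genes were. Those differences from SAMP8 control lay between -0.19 and 0.15. Dimmer probe sets reached -0.33 in *Cpeb3* and 0.24 in *Khsrp*. Between STEE-fed SAMP8 and SAMR1, *Khsrp*, *Fmr1* and *Stau1* were again past 0.2, by 0.42, 0.28 and 0.24, where 14.2% of all genes were past it. *Zfp36l1* and *Zfp36l2*, for AU-rich element binding proteins that promote decay, were the 2 lower there, with differences of -0.34 and -0.25. In the same comparison other probe sets went down to -0.13 in *Fmr1*, 0.05 in *Khsrp* and 0.07 in *Stau1*. Those of *Zfp36l2* went up to 0.02 and the other of *Zfp36l1* was at -0.27.

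**Figure D4:**
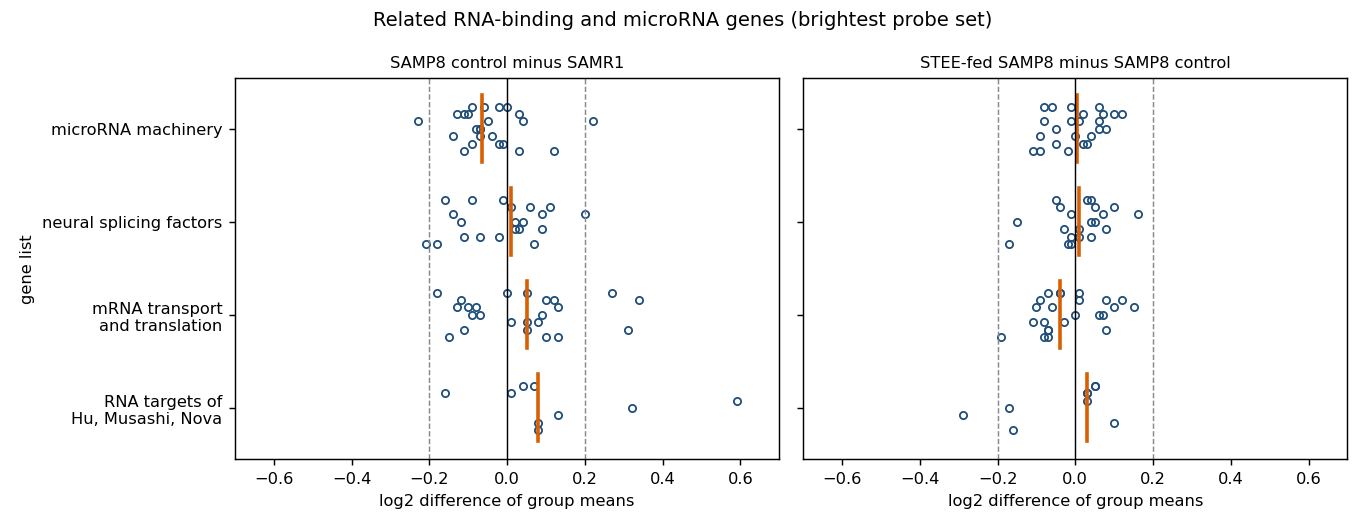
Log2 difference of group means (x axis) for genes of the microRNA machinery, splicing factors, messenger RNA transport and translation, and RNA targets (rows) other than the 9 genes, each point being the brightest probe set of a gene, the orange bar the median of the list and the dashed lines 0.2. In SAMP8 control minus SAMR1 (left) points reach -0.23 and 0.59; in STEE-fed SAMP8 minus SAMP8 control (right) only *Dcx* at -0.29 lies outside the dashed lines.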

How the data were processed

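Total RNA of cerebral cortex from each of 6 mice was labelled from the 3′ end and hybridised to Affymetrix mouse expression array strips. The authors used Expression Console for RMA normalisation and Transcriptome Analysis Console for the comparisons, and deposited 2 tables, SAMP8 control vs. SAMR1 and STEE-fed SAMP8 vs. SAMP8 control, with bi-weight average log2 signals per group and columns of fold changes, p-values and FDR-adjusted p-values. Those comparison columns were not used, and values of single arrays were not used here. The genome build is not given in the sources used here. RMA pulls arrays to a common distribution, so a shift of all genes would not be seen. The SAMP8 control means were identical in both tables (0 of 45077 probe sets differed).

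Symbol entries were split at semicolons, and differences of group means were computed in Python 3.11.15 with pandas 2.3.3, numpy 2.4.6 and matplotlib 3.10.9. Rounding allows an error of 0.01 in a difference. All 9 genes were named with every probe set. From related lists (26 microRNA, 22 splicing and 30 transport and translation genes, the 9 included, and 9 targets), genes past 0.2 by their brightest probe set were named, at most 4 per list and comparison. Marker lists covered neuron, cortex, astrocyte, oligodendrocyte, microglia, endothelium, choroid plexus, striatum, hippocampus and neural progenitor. *Dgcr8*, *Xpo5*, *Ago2*, *Lin28a*, *Lin28b*, *Nova2*, *Gap43* and *Mapt* were added for their roles after their values were seen. Genes and lists were chosen with earlier results of these data known. Older array symbols (such as *Zcchc11* for *Tut4*) were matched through the RefSeq table of GRCm38.p6, which also gave the microRNA sequences. Of the lists first written, 2 genes are not reported here and were left out of the counts. The counting step was tested on simulated data.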

Additional observations from a re-analysis of the deposited data

How the results depend on the processing

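With the threshold at 0.1 in place of 0.2, the probe sets of the 9 genes past it numbered 13 between the strains on water, 14 with STEE and 22 in STEE-fed SAMP8 vs. SAMR1. With STEE, 30.4% of all probe sets differed by at least 0.1. At 0.3 the probe sets of the 9 genes numbered 5, 1 and 6, and 5.34% of all probe sets were past it between the strains. Without the 9 probe sets whose suffix marks several transcripts or genes, 4, 1 and 6 were past 0.2, and the 1 left with STEE was of *Msi2*. For the other counts at 0.1, at 0.3 and without such suffixes, no share of all probe sets was computed. Those counts therefore cannot show whether the 9 genes stood out. Centring on the median of all probe sets changed none of the 3 counts at 0.2, and leaving out probe sets below the median signal changed the last to 9. With 1 value per gene, from its brightest probe set, the median with STEE was -0.04 and that of STEE-fed SAMP8 vs. SAMR1 was -0.06. For single genes, 108 values were recomputed and 49 moved by more than 0.01, 14 changed sign and 8 crossed 0.2; in *Msi1* the strain difference was -0.30 in the brightest probe set and -0.05 as a median, and in *Msi2* the STEE difference was -0.04 in the brightest and -0.29 in the brightest without shared probes. The cause of disagreement between probe sets was not tested. No paired analysis was possible because only group means were used, and for the same reason no mouse could be left out in turn. Detection calls were not used here, so dim probe sets may lie at background.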

Other observations

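Of 9 textbook RNA targets of Hu, Musashi and Nova proteins, 8 lay above SAMR1 in SAMP8 control, 2 of them past 0.2 by the brightest probe set, where 12.6% of all genes were, with a median difference of 0.08 beside 0 over all genes. *Cdkn1a*, a cell cycle inhibitor whose messenger RNA HuR and HuD bind, was 6.09 in SAMR1, 6.68 in SAMP8 control and 6.71 with STEE, and its difference of 0.59 was larger than that of any probe set of the 9 genes. *Numb*, a Notch inhibitor whose translation Msi1 represses, was 7.55, 7.87 and 7.70. With STEE, *Dcx*, a microtubule protein of young neurons, was the only target past 0.2 by the brightest probe set, where 5.72% of all genes were, at 6.71 in SAMR1, 6.84 in SAMP8 control and 6.55 with STEE. The dimmer *Cdkn1a* probe set was 0.28 higher with STEE, and other *Dcx* probe sets reached 0.03. *Gap43* and *Mapt*, the targets best known for *Elavl4*, differed from SAMP8 control by 0.05 and 0.03 with STEE, at group means of 8.93 to 9.05 and 9.08 to 9.12. The array gives the level of a messenger RNA and not its translation or splicing.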
